A study of Mus musculus with 6 samples.

Results

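The genes described here encode the proteins of the mitochondrial ribosome. Members were chosen by name, as genes whose probe set carries 1 symbol that begins with Mrpl (large subunit) or Mrps (small subunit) followed by a digit, and 1 probe set was kept per gene. This gave 77 members of 19733 genes tested, 48 of the large and 29 of the small subunit. RefSeq lists 1 more protein-coding gene with such a name, Mrpl53, whose probe set it shares with Ccdc142, and it was left out. Expression was measured on 6 Affymetrix arrays of mouse bone marrow pre-B cells from Ppp2r1a fl/fl mice. All 6 carried the BCR-ABL1 oncogene, a fusion kinase of B cell acute lymphoblastic leukaemia, and the floxed alleles of Ppp2r1a, which encodes the scaffold of the enzyme PP2A (protein phosphatase 2A). In 3 arrays the cells had received Cre to delete the gene (labelled Cre-mediated PP2A deletion), and in 3 an empty vector (EV; labelled wild type). The sources used here give neither the age and sex of the mice nor the time after transduction or the number of cultures. No array held Cre in cells without floxed alleles, so effects of Cre itself and of the deletion cannot be told apart.

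The mitochondrial ribosome translates the few messages of mitochondrial DNA, which encode inner-membrane subunits of the respiratory chain and ATP synthase. Its RNA comes from the mitochondrial genome, while its proteins are made in the cytosol from nuclear genes and imported. The small subunit holds the message and the decoding site. The large subunit joins the amino acids and guides the new chain through a tunnel to the inner membrane. Many of the proteins have a bacterial counterpart, and the rest are found in mitochondria alone.

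Ppp2r1a read 7.12, 6.98 and 6.92 in Cre and 9.06, 9.05 and 9.06 in EV. Over all genes, 422 were lower and 267 higher in Cre, and array medians lay between 5.22 and 5.27. The pre-B cell markers averaged between 9.96 and 10.11 on the Cre arrays and between 10.39 and 10.45 on the EV arrays. Of the 12 measured, Rag1, Rag2 and Dntt fell and 0 rose at a limma adjusted p below 0.05. These 3 differed by -2.09, -1.84 and -0.48 on the log2 scale. Of the 12 markers 6 were negative and 6 positive, with a median difference of -0.059. The marker lists of myeloid, erythroid and platelet, stromal, and T and NK cells averaged between 3.73 and 4.83 on every array, and Cd2, which mouse B cells also express, was the brightest marker among them at 9.63. Cd2 was also the 1 marker of these lists that fell (limma adjusted p = 0.024). Markers of dividing cells averaged between 9.95 and 9.96 in Cre and between 9.81 and 9.85 in EV, and 0 of the 9 measured passed the test. The part of these shifts in the results that follow was not tested. The samples are bulk RNA, in which fewer cells of a type and less RNA per cell cannot be told apart.

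One mitoribosomal gene, Mrpl24, changed in the Cre cells, and the other 76 did not pass the test. Mrpl24 encodes a large-subunit protein that sits near the exit of the nascent chain tunnel. Its level, on the log2 scale of the arrays, read 7.71, 7.69 and 7.64 in Cre and 8.24, 8.40 and 8.33 in EV. The 3 Cre arrays lay within 0.07 of each other and all below the lowest EV array. The mean fell from 8.32 ± 0.08 to 7.68 ± 0.04 (SD, n = 3), a log2 difference of -0.64 (standard error, SE, 0.07), or 1.56-fold. The limma p, adjusted by Benjamini-Hochberg over all 19733 genes, was 0.00272. A gene was called changed below 0.05. By that rule 3.49% of all genes changed (2.14% lower and 1.35% higher), against 1 of 77 members lower and 0 higher. The call was kept in all 6 fits with 1 array left out, with a highest adjusted p of 0.0155.

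The genes beside Mrpl24 on chromosome 3 did not pass. In the RefSeq gene order (GRCm38.p6) its nearest measured neighbours are Hdgf on one side and Rrnad1 on the other. Hdgf, a growth factor, differed by -0.10 (SE 0.08) and Rrnad1 by -0.15 (SE 0.08), and Prcc and Isg20l2, the next on each side, by 0.0003 (SE 0.07) and 0.02 (SE 0.08). None of the 5 measured genes on either side had a limma adjusted p below 0.178.

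The stretch upstream of 3 members is shown because they hold the ends of the range of changes: Mrpl24, the gene that fell, Mrps18b, the most negative value of the small subunit, and Mrps12, the most positive value of the family. Each is the 250 bases before the RefSeq transcription start, read 5′ to 3′ on the gene's strand (GRCm38.p6). They lie at chr3:87919294-87919543 on the plus strand for Mrpl24, chr17:35916441-35916690 on the minus strand for Mrps18b and chr7:28741822-28742071 on the minus strand for Mrps12. Capitals mark the searched motifs, which were CACGTG (the E-box read by MYC and MAX), GCATGCGC (the core bound by nuclear respiratory factor 1, NRF1), CCGGAAGT (ETS factors such as GABPA) and AAGATGGCG (YY1), each on both strands.
Mrpl24: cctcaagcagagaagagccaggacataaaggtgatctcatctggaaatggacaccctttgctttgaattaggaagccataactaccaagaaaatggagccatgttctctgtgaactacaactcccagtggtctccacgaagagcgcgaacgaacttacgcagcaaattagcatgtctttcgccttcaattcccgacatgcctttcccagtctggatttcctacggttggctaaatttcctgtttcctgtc
Mrps18b: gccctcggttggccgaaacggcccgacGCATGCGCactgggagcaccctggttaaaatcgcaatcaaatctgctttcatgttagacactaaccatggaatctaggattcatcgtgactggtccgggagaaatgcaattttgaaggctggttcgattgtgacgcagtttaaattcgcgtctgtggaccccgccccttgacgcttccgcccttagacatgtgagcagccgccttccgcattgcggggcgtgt
Mrps12: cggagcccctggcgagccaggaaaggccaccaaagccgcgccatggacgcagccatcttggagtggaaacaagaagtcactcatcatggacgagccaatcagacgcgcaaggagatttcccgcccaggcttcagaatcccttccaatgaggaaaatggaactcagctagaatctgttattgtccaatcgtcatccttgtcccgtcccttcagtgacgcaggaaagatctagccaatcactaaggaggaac

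In these 3 stretches there was a single match, the NRF1 letters 223 bases before the Mrps18b start. Promoter windows of 300 bases, with 50 bases past the start, were listed for 68 members and for 15428 of all genes tested. The NRF1 letters stood in 8 of the 68 members (11.8%), against 4.3% of all genes. The ETS letters stood in 12 (17.6%, against 6.05%) and the YY1 letters in 8 (11.8%, against 2.31%). The E-box was found in 5 (7.35%, against 9.53%). The median changes of members with and without the motif were -0.073 and -0.041 for NRF1, -0.0047 and -0.062 for ETS, -0.018 and -0.051 for YY1, and -0.038 and -0.046 for the E-box, and these differences were not tested. A match describes the letters of the window and is not evidence of a bound site.

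The remaining members differed by at most 0.30 on the log2 scale. Mean levels lay between 6.40 (Mrpl22) and 10.65 (Mrpl42), all above the array medians. The unadjusted 95% interval of the difference lay within ±0.25 for 44 members, within ±0.3 for 58 and within ±0.5 for 76, all but Mrpl24. By such an interval, changes under about 0.2 cannot be told from no change for most members, since the median SE of a member was 0.07. The test over all genes asks for more, and differences as large as 0.30 did not pass.

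**Figure D1:**
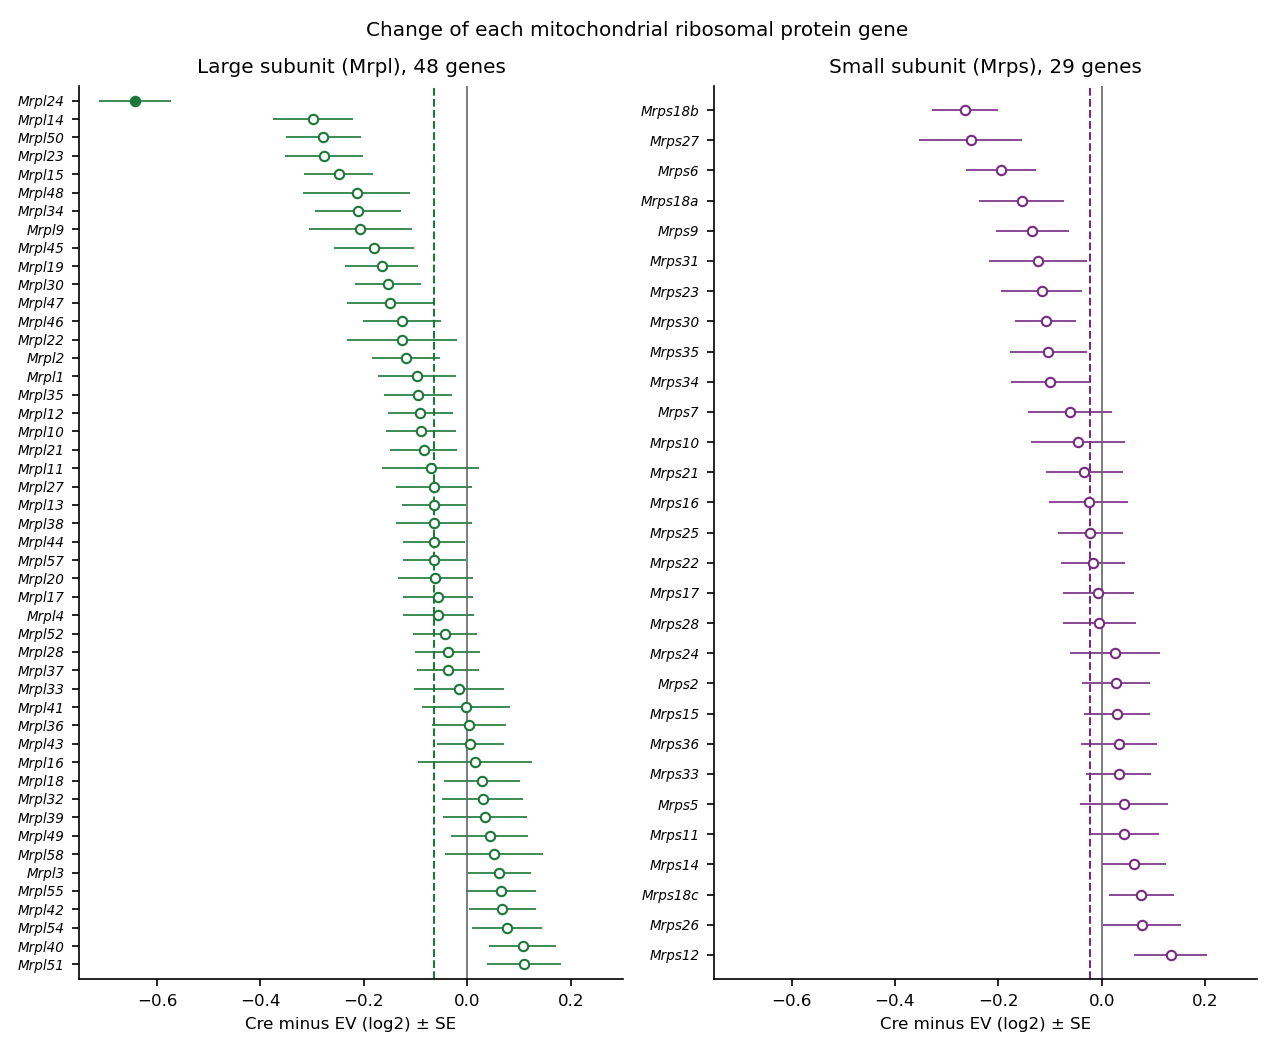
Cre minus EV difference of each gene (log2, x axis) with its standard error, for 48 large-subunit (left) and 29 small-subunit (right) genes; the filled point passed the test and the dashed line is the median. Mrpl24 at -0.64 stands apart from the other 76 genes, which lie between -0.30 and 0.13.

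In the large subunit the next lowest values were those of Mrpl14, Mrpl50, Mrpl23 and Mrpl15. Mrpl14, which faces the small subunit, read 8.68, 8.57 and 8.70 in Cre and 8.83, 9.03 and 8.98 in EV, a difference of -0.30 (SE 0.08; limma adjusted p = 0.0948). Mrpl50, a protein without a bacterial counterpart, read 8.32, 8.39 and 8.22 against 8.56, 8.65 and 8.55, a difference of -0.28 (SE 0.07; limma adjusted p = 0.0948). In both genes every Cre array was below every EV array, but the differences did not pass over all genes. Mrpl23, a neighbour of Mrpl24 at the tunnel exit, read 9.84, 9.81 and 9.91 against 10.01, 10.21 and 10.17 (difference -0.28, SE 0.08; limma adjusted p = 0.114). Mrpl15, a core protein shared with bacteria, read 7.73, 7.66 and 7.76 against 7.89, 8.0 and 8.0 (difference -0.25, SE 0.07; limma adjusted p = 0.105). These 4 genes passed under 2 of the alternatives tried, which were a fit without the dimmer 50% of genes and a variance model with trend and robust settings.

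At the positive end of the large subunit were Mrpl51, Mrpl40, Mrpl54, Mrpl42 and Mrpl55, which are all mitochondria-specific proteins. Mrpl51 read 10.51, 10.66 and 10.62 in Cre and 10.42, 10.55 and 10.49 in EV, a difference of 0.11 (SE 0.07). Mrpl40 read 8.64, 8.53 and 8.62 against 8.46, 8.53 and 8.48, also 0.11 (SE 0.06). A second probe set of Mrpl51, described below, differed by 0.066 (SE 0.06), less than Mrpl40. The groups overlapped for Mrpl51, Mrpl40, Mrpl54 and Mrpl55, and the lowest limma adjusted p of the 5 was 0.488. The other 3 differed by between 0.066 and 0.077.

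In the small subunit 0 of 29 genes passed. Mrps18b, a mitochondria-specific relative of bacterial S18, read 7.96, 8.07 and 8.05 in Cre and 8.28, 8.27 and 8.33 in EV, a difference of -0.26 (SE 0.06; limma adjusted p = 0.077). Its groups did not overlap, and it passed under the 2 alternatives named for Mrpl14 and also when the dimmest 25% of genes were left out. Mrps27, an RNA-binding protein, read 6.36, 6.63 and 6.34 against 6.58, 6.80 and 6.71, with overlap between the groups (-0.25, SE 0.10). Mrps6, of the platform of the subunit, read 7.92, 7.88 and 7.86 against 8.08, 8.16 and 8.0, without overlap (-0.20, SE 0.07). Mrps18a differed by -0.16 (SE 0.08) and Mrps9 by -0.13 (SE 0.07). None of Mrps27, Mrps6, Mrps18a and Mrps9 had a limma adjusted p below 0.209.

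Mrps12, which lines the decoding site, had the most positive value of the family. It read 8.51, 8.58 and 8.60 in Cre and 8.33, 8.48 and 8.48 in EV, a difference of 0.13 (SE 0.07; limma adjusted p = 0.426). The groups did not overlap, but the gap between them was 0.03. Mrps26, Mrps18c, Mrps14 and Mrps11 followed with differences between 0.044 and 0.078, and none passed. Mrps28 read 10.46, 10.56 and 10.58 against 10.46, 10.60 and 10.54 and differed by -0.0047 (SE 0.07), with a 95% interval from -0.17 to 0.16.

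**Figure D2:**
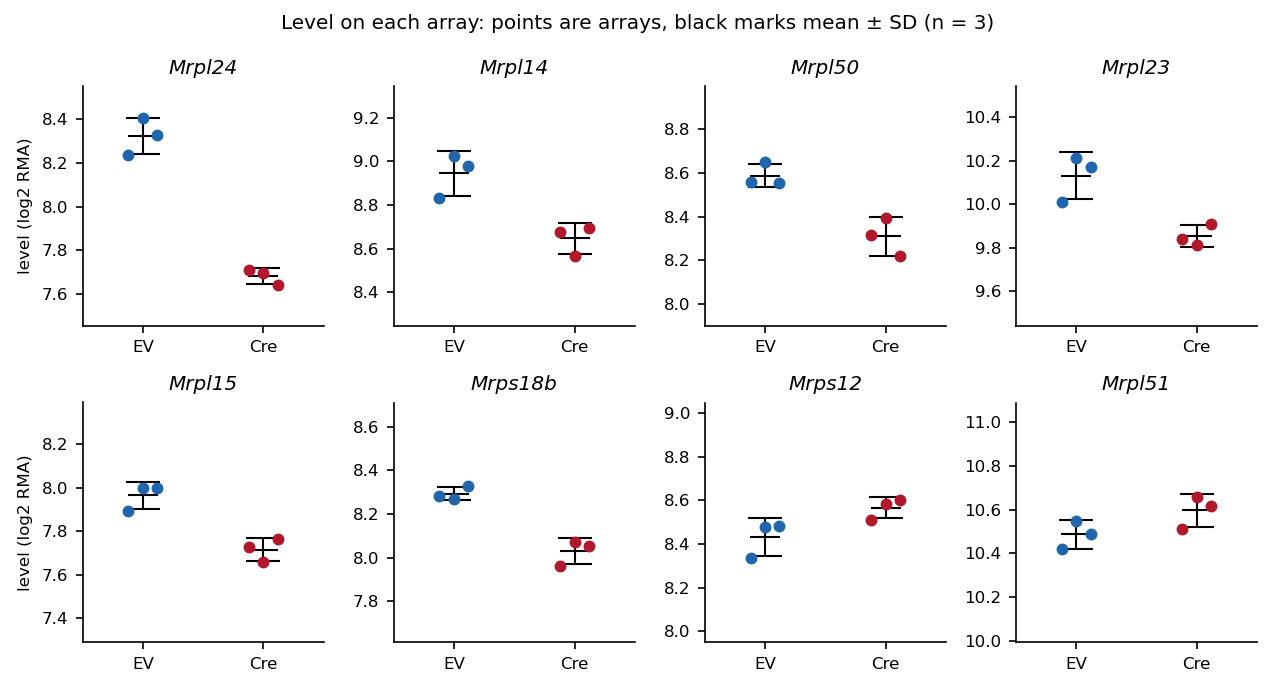
Level of 8 members on each array (log2 RMA, y axis, the same span in each panel) in EV and Cre; points are arrays and black marks are the mean ± SD (n = 3). Mrpl24 is separated by more than 0.5 and the next 5 genes by smaller gaps. Mrps12 and Mrpl51 are the most positive values of their subunits with the probe sets used here.

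Most members were slightly lower in Cre, with a median difference close to that of cytosolic ribosomal proteins. Of the 77, 52 had a negative and 25 a positive difference (67.5% negative, against 50.9% of all genes tested), with a median of -0.057 against -0.0027 for all genes. Every Cre array was below every EV array for 20 members (26.0%, against 12.2% of all genes), and above for 3 (3.9%, against 10.3%). Among the 9866 genes with the highest mean level, a set that holds all 77 members, these shares were 18.4% and 14.5%. Both shares were thus larger in this brighter set than over all genes, while the members' share above EV was smaller. The part of level in the members' shares was not tested. At an unadjusted p below 0.05, 12 of 77 members were lower and 0 higher, while 9.02% of all genes were lower and 7.1% higher. Of the 9866 genes with the highest mean level, 1282 were lower and 895 higher by that rule. Both are larger shares than over all genes, and the share of lower members was nearer to that of this brighter set. The count of lower members depended on the processing. It was 8 after quantile normalization again and 6 without EV replicate 2, the lowest count. With trend and robust settings it was 18, the highest, and 2 members were higher. The members share arrays and are not independent of each other, so these shares are a description of 6 arrays.

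The large subunit had slightly more negative values than the small one. The median difference, Cre minus EV, was -0.0645 over the large and -0.023 over the small subunit, so the subunits differed by -0.042. Negative values were seen in 34 of 48 large-subunit and 18 of 29 small-subunit genes. Every Cre array lay below every EV array in 16 of 48 large-subunit genes (33.3%) and above in 1 (2.08%). In the small subunit these were 4 of 29 (13.8%) and 2 (6.9%). The shares were 12.2% and 10.3% of all genes, and 18.4% and 14.5% of the 9866 genes with the highest mean level. The small-subunit share below EV was thus near that of all genes, and the large-subunit share was above both. To see this array by array, each gene's level was set against its own mean over the 6 arrays, and the median over the large subunit minus that over the small subunit was taken. It was -0.024, -0.027 and -0.00092 in Cre and 0.020, 0.010 and 0.019 in EV. The groups did not overlap, but Cre replicate 3 lay close to 0. The margin is below the SE of any single gene, which is not the spread of a median over many genes. Within groups, the SD of this quantity over arrays was 0.011, and the difference was not tested. The difference was -0.023 without Cre replicate 1 and -0.055 without EV replicate 2.

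The lower level of the family in Cre held only narrowly against EV replicate 1. For the small subunit alone, that array (-0.034) lay below all the Cre arrays (-0.013, -0.015 and -0.020). The median centred level of all members was -0.027, -0.023 and -0.021 in Cre, but -0.019, 0.069 and 0.037 in EV. EV replicate 1 thus read nearly as low as the Cre arrays, and EV replicate 2 was the highest array for 38 of 77 members. Without EV replicate 2 the median over all members was -0.031 and that of the small subunit turned positive, at 0.0053, while without EV replicate 1 the median over all members was -0.079. Mrpl24 kept its call without either array. The part of array quality in this shift was not tested. Normalizing the arrays to equal quantiles again moved the median over members to -0.036, with 48 of 77 negative, and that of all genes to 0.0078.

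**Figure D3:**
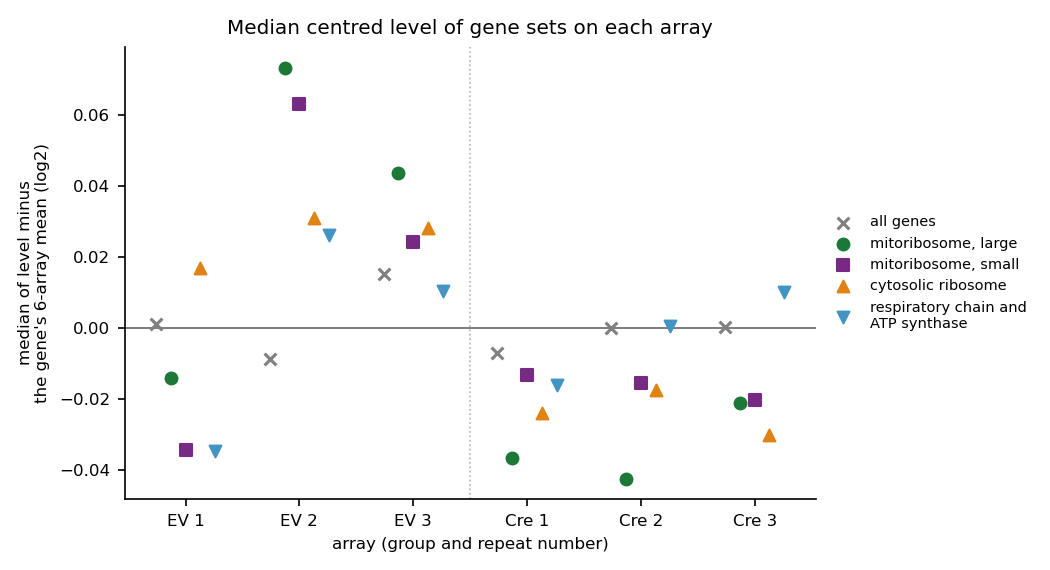
For each array (x axis), the median over a gene set of the level minus each gene's mean over 6 arrays (log2, y axis). Mitoribosomal genes of both subunits are high in EV 2 and EV 3 and not in EV 1, and lie below 0 in all 3 Cre arrays.

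The names of 3 genes do not match their place. In structures of the mammalian mitoribosome Mrps18a and Mrps30 belong to the large subunit, and Mrps36 is known as a part of the oxoglutarate dehydrogenase complex. They differed by -0.16 (SE 0.08), -0.11 (SE 0.06) and 0.03 (SE 0.07), and none passed. Sorted by structure the medians were -0.065 for the large and -0.020 for the small subunit. Among 29 large-subunit proteins with a bacterial counterpart 24 were negative (median -0.09), and among 21 mitochondria-specific ones 12 were (median -0.038). In the small subunit the order was the other way, with a median of 0.011 over 16 proteins with a counterpart and -0.10 over 10 mitochondria-specific ones.

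Some members were also grouped by place on the large subunit, after the values were seen, and the groups were therefore not tested. The lists may leave out other members at the same places. The 6 proteins listed around the tunnel exit were all negative. Beside Mrpl24 and Mrpl23, Mrpl45, which anchors the ribosome at the inner membrane, differed by -0.18, Mrpl47 by -0.15, Mrpl22 by -0.13 and Mrpl17 by -0.057. The stalk proteins Mrpl10, Mrpl11 and Mrpl12, which recruit translation factors, differed by between -0.091 and -0.071. Of the 6 listed in the central protuberance 4 were negative, and the values ran from -0.21 (Mrpl48) to 0.11 (Mrpl40). Of these 15 proteins Mrpl24 was the 1 that passed.

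By chromosome, 8 members lie on chromosome 17, which also holds Ppp2r1a. Their median was -0.11, with 7 of 8 negative, among them Mrpl14, Mrps18b and Mrps18a, and 0 of 8 passed. The 69 other members had a median of -0.056. All 932 tested genes of chromosome 17 had a median of 0.001.

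Probe sets of 5 members may not read the gene they are named for. For 72 members the 20 nearest probe numbers were mostly of genes on the member's own chromosome. The probe sets used for Mrpl27, Mrpl41, Mrpl48, Mrpl51 and Mrps33 lie among numbers of another chromosome than the gene's own. For Mrpl48 the neighbouring probes are of chromosome 4, where RefSeq has the pseudogene Mrpl48-ps, and the gene is on chromosome 7. The value of Mrpl48, -0.21 (SE 0.10), is uncertain for that reason. The other 4 have a second probe set among numbers of their own chromosome, which differed by -0.077 (SE 0.07) for Mrpl27, 0.046 (SE 0.05) for Mrpl41, 0.066 (SE 0.06) for Mrpl51 and 0.024 (SE 0.06) for Mrps33. With these in place and without Mrpl48, the medians were -0.064 and -0.023, and Mrpl24 was again the 1 member called.

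Genes that serve the mitochondrial ribosome held 1 further change. Mtrf1, of the release factor family that ends translation, read 4.66, 4.63 and 4.62 in Cre and 5.52, 5.57 and 5.55 in EV. All 3 Cre arrays were well below EV, and the gene fell by 0.91 on the log2 scale (SE 0.06; 1.88-fold; limma adjusted p = 0.000253). Its Cre level lay below the array medians, so the fold rests on a dim value. Of 16 translation factors it was the 1 called. The list's median was -0.064, and Letm1 and Guf1 differed by 0.27 and -0.29 without passing.

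Of 28 mitoribosome assembly factors 0 passed, and their median was -0.048. Mtg1, a GTPase that acts late in assembly of the large subunit, read 6.90, 6.83 and 6.80 against 7.12, 7.21 and 7.11 and differed by -0.31 (SE 0.07; limma adjusted p = 0.0537). C1qbp, a matrix protein needed for mitochondrial translation, differed by -0.26 (SE 0.06; limma adjusted p = 0.0762). Both passed under 3 of the alternatives, those named for Mrps18b.

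Of 21 synthetases and related enzymes that charge mitochondrial tRNA 0 passed (median 0.013). Qrsl1, of the complex that makes glutaminyl-tRNA, differed by 0.48 (SE 0.12; limma adjusted p = 0.0757), with EV replicate 3 well below the other EV arrays (6.72, 6.81 and 6.37 in EV; 7.08, 7.07 and 7.2 in Cre). It passed under the same 3 alternatives. Mars2, a methionyl-tRNA synthetase, differed by -0.23 (SE 0.08).

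Of 15 genes of mitochondrial DNA expression 0 passed, 11 were negative and the median was -0.11. Hsd17b10, a subunit of mitochondrial RNase P, differed by -0.22 (SE 0.07), passing under 2 alternatives, and Tefm, a transcription elongation factor, by -0.23 (SE 0.09). The 4 measured mitoribosomal proteins with other symbols were all negative, among them Dap3 at -0.14 (SE 0.06) and Ptcd3 at -0.086 (SE 0.08), both of the small subunit, and 0 passed.

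Among 12 regulators of nuclear mitochondrial genes Myc was the 1 called. It read 10.21, 10.02 and 10.70 in Cre and 11.29, 11.25 and 11.39 in EV, a fall of 1.00 on the log2 scale (SE 0.16; limma adjusted p = 0.0167). The 3 Cre arrays spread more widely than the EV arrays, and the call was lost without Cre replicate 1 or any 1 of the EV arrays (highest adjusted p = 0.0662). The other 11 differed by between -0.16 and 0.17.

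The cytosolic ribosome and the respiratory chain give the scale of these shifts. Of 63 genes with names of cytosolic ribosomal proteins 55 were negative (87.3%), with a median of -0.054, and 0 passed. The name rule also took in genes such as Rpl3l and Rps19bp1. The median level of this set was 12.38, against 8.345 for the mitoribosomal members. Whether its probe sets lie among numbers of each gene's own chromosome was not checked. Of 82 subunits of the respiratory chain and ATP synthase 43 were negative (52.4%), with a median of -0.0052. Of those, Cox6a2 rose by 1.03 (SE 0.13; limma adjusted p = 0.00536), while Cox7a1 fell by 0.59 (SE 0.09) and Ndufs5 by 0.33 (SE 0.06). The mitoribosomal median difference thus lay by that of the cytosolic ribosome, but the values by array differed. The median centred level of the cytosolic set was -0.024, -0.0175 and -0.030 in Cre and 0.017, 0.031 and 0.028 in EV. All 3 EV arrays were thus above 0, whereas for the mitoribosomal members EV replicate 1 was at -0.019. No test of the difference between these families was made.

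**Figure D4:**
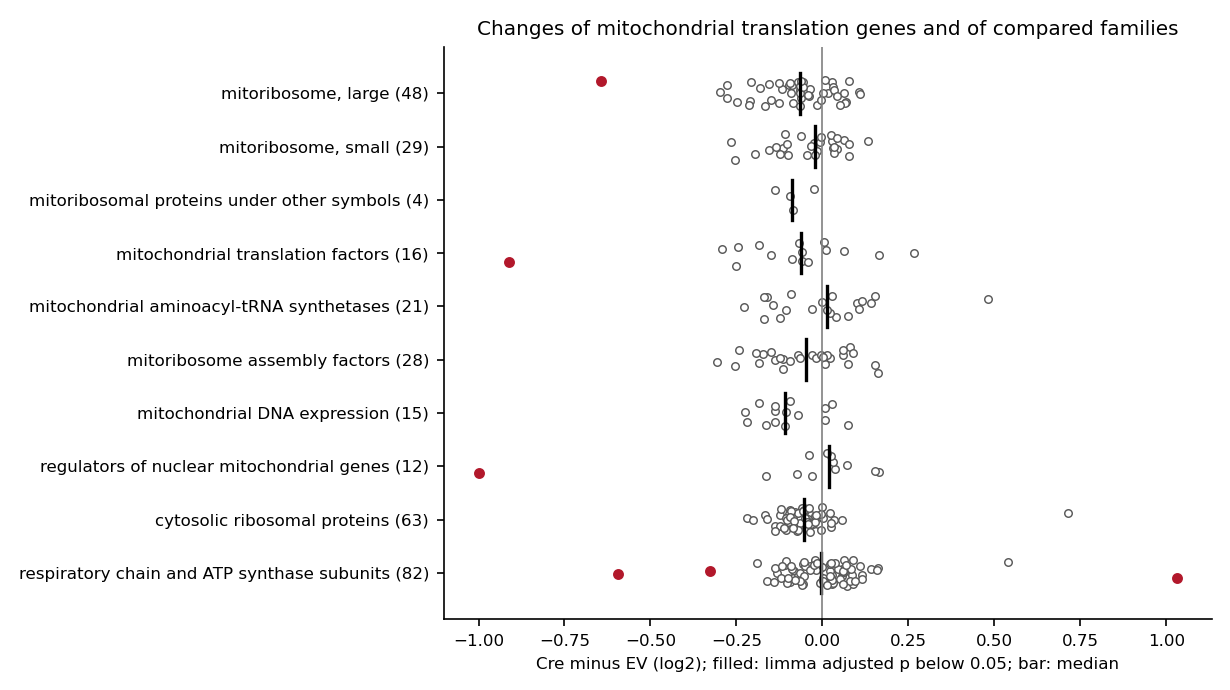
Cre minus EV difference (log2, x axis) of each gene in 10 sets, with the number of genes in brackets; filled points passed the test and bars are medians. Mrpl24, Mtrf1 and Myc, the last from the regulators, are the filled points among the 8 sets other than the compared families. Most open points lie within 0.3 of 0.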

How the data were processed

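The values are log2 levels per probe set, deposited by the authors. Per the submitters' processing notes they were made with RMA, which subtracts background, equalises the quantiles of the arrays and summarises probes. Its version was not given in the sources. Because RMA equalises the arrays, every difference is relative to other genes. On the values used, the median, minimum and maximum of each array were compared. Medians lay between 5.22 and 5.27, minima between 1.215 and 1.408 and maxima between 13.398 and 13.47. Quantile normalization again moved the median difference of all genes from -0.0027 to 0.0078, so the quantiles were not exactly equal. Of 25006 probe sets, 21467 carried 1 symbol in the platform annotation, 1521 several and 2018 none. Those with 1 symbol were used, and for 931 genes with several the one with the highest mean over 6 arrays was taken. Each gene was fitted on the group alone (R 4.3.3; limma 3.58.1, lmFit followed by eBayes), with p-values adjusted by Benjamini-Hochberg over 19733 genes; the fit was tested on simulated data. No detection calls were used, and the number of arrays limits the precision. Nothing says that repeats were separate cultures, so the spread behind each p-value is that of the arrays and may be technical. Tables and plots were made with Python 3.11.15, pandas 2.3.3 and matplotlib 3.10.9.

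Members and lists were chosen with earlier results of these data known. Named were Ppp2r1a, members called, the 5 most positive and 5 most negative of each subunit, the highest and lowest level of each subunit, and, per list, up to 4 genes called or else the 2 with the smallest p. Other genes, including the neighbours of Mrpl24, the 3 groups by place, chromosome 17, members with doubtful probe sets, Mrps30, Mrps36, Letm1, Guf1, Cd2, the pre-B markers and the respiratory subunits, were named after their values were seen. Promoters came from RefSeq tables (GRCm38.p6). The alternatives are given in the closing section.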

Additional observations from a re-analysis of the deposited data

How the results depend on the processing

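Mrpl24 was called in all alternatives run, with differences between -0.69 and -0.60. The count of members called was 2 without the dimmest 25% of genes (Mrpl24 and Mrps18b), 6 without the dimmer 50% (Mrpl14, Mrpl15, Mrpl23 and Mrpl50 in addition) and 7 with trend and robust settings (Mrpl30 in addition), and 1 in the other alternatives, 6 fits with 1 array left out included. All genes called numbered 689, against 1295 without the dimmer 50%, where fewer genes were tested, 1558 with trend and robust settings, where the cause was not tested, and 362 to 424 with 1 array left out. The repeat number as a replicate block gave 425 genes called and 1 member, Mrpl24. Same-numbered arrays did not deviate together (r of 0.0094, -0.012 and 0.030 over genes), and not every array correlated best with its own number. These values cannot tell whether same-numbered arrays shared a culture or a day, which the labels do not give. The median change ranged from -0.091 to -0.043 for the large subunit and from -0.041 to 0.0053 for the small, and the difference between them from -0.055 to -0.023; these bounds came from fits with 1 array left out, except -0.043, from quantile normalization again. With means in place of medians the subunits differed by -0.040. The use of probe sets by chromosome was chosen after the data were seen. Depth does not apply to arrays, and 3 arrays per group limit what small changes can pass.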
